A study of Mus musculus with 6 samples.

Results

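Krt7, Krt19, Krt8, Krt18, Sox9, Spp1, Epcam, Muc1, Tspan8 and Cftr are genes of the bile duct epithelium and of the ductular reaction. They were followed here through every probe set (a set of short probes on the array that reads a transcript) whose platform annotation named exactly that gene. Of the 10 genes, 9 had such a probe set, and these held 16 of the 22626 probe sets tested. Spp1 (osteopontin) had no named probe set here and was not analysed. Gene expression was measured on one-colour Affymetrix arrays in whole liver of 3 PiZ and 3 wild-type mice, all 6 weeks old and on a C57BL/6 background, and each array held RNA of its own biological replicate. The PiZ strain is transgenic for human alpha-1 antitrypsin in its Z variant, a protease inhibitor that misfolds and accumulates in hepatocytes. The sources used here give neither the promoter of the transgene nor the sex of the mice. The comparison asked how these genes differ between livers with and without the mutant protein. Values are log2 intensities, differences subtract wild-type from PiZ in log2 units and carry standard errors (SE) from limma, and adjusted p-values (Benjamini-Hochberg over all 22626 probe sets, called at 0.05) come from the same fit, with n = 3 per group.

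Bile ducts are lined by cholangiocytes, which build their cytoskeleton from the keratins Krt7, Krt8, Krt18 and Krt19, whereas adult hepatocytes make only the Krt8 and Krt18 pair. A ductular reaction is the appearance of more duct-like cells in an injured liver. It is recognised by cells that carry Krt7, Krt19, Sox9, Epcam and Spp1. Keratin filaments assemble from pairs of a type II chain (Krt7, Krt8) and a type I chain (Krt18, Krt19).

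The genes moved unequally. Krt8 and Krt18, the pair shared by hepatocytes and cholangiocytes, rose in every PiZ liver, 3.38-fold to 4.15-fold by their 4 probe sets. Krt7 and Krt19, the keratins restricted to ducts, differed by 0.53 (SE 0.23) and 0.43 (SE 0.14) and did not pass the test. Muc1 rose by 0.71 (SE 0.17), and Sox9, Epcam, Tspan8 and Cftr did not pass. Of the 16 probe sets, 5 were called higher (3 of them of Krt8) and 0 lower by limma (0 also at an unadjusted p under 0.05), where 8.93% of all probe sets were called higher and 10.2% lower. Of the 5 called, 4 read Krt8 or Krt18, genes that hepatocytes also make. The duct-restricted keratins, Sox9 and Epcam did not pass, and their probe sets lay below the array median on all 6 arrays. In 8 of the 16 all PiZ arrays lay above all wild-type arrays, against 23.4% of all probe sets. In whole liver, more cells of a type and more RNA per cell cannot be told apart.

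**Figure D1:**
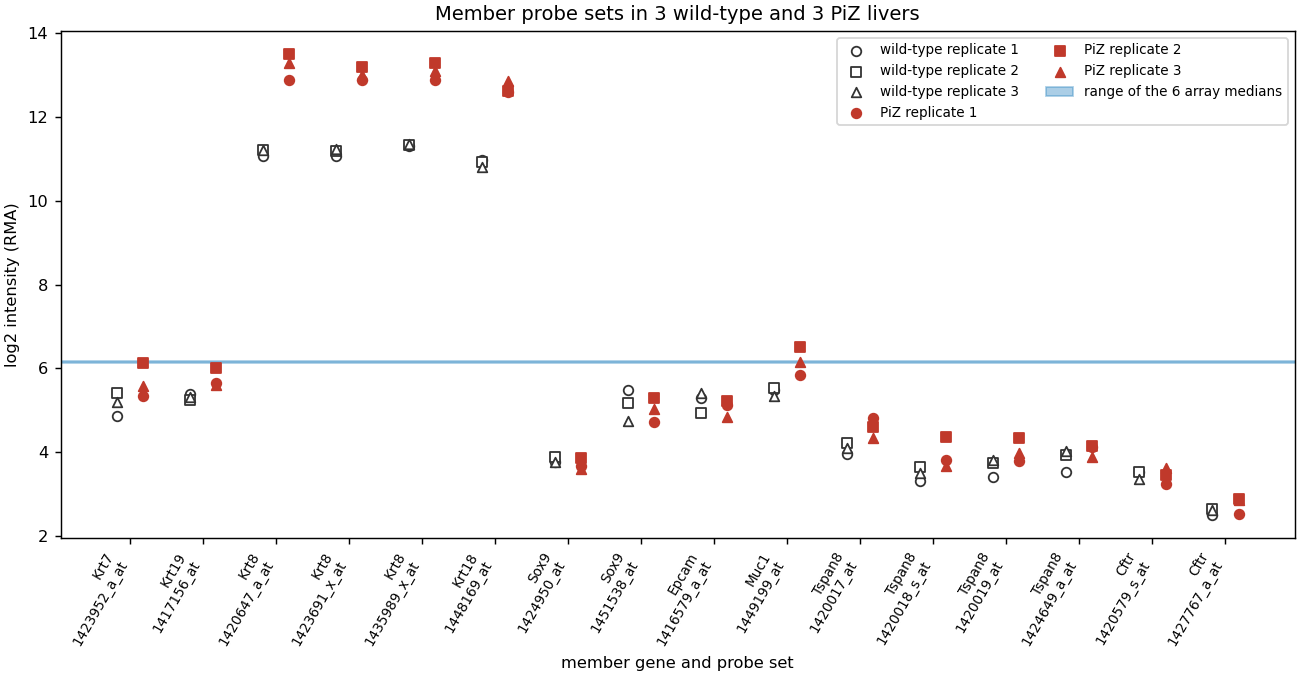
Log2 intensity (vertical axis) of the 16 member probe sets (horizontal axis) in each array, with open symbols for wild-type, filled symbols for PiZ, symbol shape for the replicate, and a band for the range of the 6 array medians. The 4 probe sets of Krt8 and Krt18 lie far above the medians, with all PiZ arrays above all wild-type arrays. The other 12 lie below the median of their own array, apart from Muc1 in PiZ replicate 2.

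Only the 4 probe sets of Krt8 and Krt18 stood above the median of their array on all 6 arrays. Another 11 stood below it on all 6, and that of Muc1 stood below it on 5. Array medians ran from 6.12 to 6.18. Without detection calls in the files a dim member cannot be told from background, and differences of dim probe sets may be compressed. The livers also differed in RNA quality. The mean log2 difference between the 3′ and 5′ probe sets of the Gapdh and beta-actin control transcripts, which grows as RNA shortens, was 2.20, 2.70 and 2.30 in wild-type replicates 1, 2 and 3. PiZ replicate 1 stood at 2.50, and the other PiZ replicates, numbers 2 and 3, at 4.64 and 4.33. The part of RNA quality in dim members was not tested beyond the fits named beside them. For the tissue label, 10 of 10 hepatocyte markers stood above the median on all arrays.

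The starts of the called members Krt8, Krt18 and Muc1, and of Krt7 as the duct-restricted gene of the same chromosome, are shown to place the genes that moved beside one that did not pass. Each stretch runs from 250 bases before to 50 bases after the RefSeq start in GRCm38.p6, 5′ to 3′ on the gene's strand. Capitals mark matches, on either strand, to any of 9 motifs. Among general promoter elements these were TATAAA for the TATA box and GGGCGG for the GC box, and CCAAT for the box of that name. Among stress factors, AP-1 was searched as TGANTCA, the C/EBP-ATF composite site as TGATGNAA and the core of the antioxidant response element as TGACNNNGC. The ER stress response element was searched as the CCAAT box, which it therefore overlaps, followed after 9 bases by the letters CCACG. Among duct-forming pathways, the Notch factor RBPJ was searched as TGGGAA and the YAP partner TEAD as GGAATG. Krt8 is at chr15:102004293-102004592 on the minus strand, Krt18 at chr15:102027966-102028265 on the plus strand, Krt7 at chr15:101412153-101412452 on the plus strand and Muc1 at chr3:89228806-89229105 on the plus strand.
Krt8: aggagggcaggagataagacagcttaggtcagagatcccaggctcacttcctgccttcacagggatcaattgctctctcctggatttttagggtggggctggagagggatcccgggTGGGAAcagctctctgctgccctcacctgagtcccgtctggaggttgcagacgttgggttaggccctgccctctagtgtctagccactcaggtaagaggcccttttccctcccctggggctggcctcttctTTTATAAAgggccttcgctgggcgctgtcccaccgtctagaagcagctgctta
Krt18: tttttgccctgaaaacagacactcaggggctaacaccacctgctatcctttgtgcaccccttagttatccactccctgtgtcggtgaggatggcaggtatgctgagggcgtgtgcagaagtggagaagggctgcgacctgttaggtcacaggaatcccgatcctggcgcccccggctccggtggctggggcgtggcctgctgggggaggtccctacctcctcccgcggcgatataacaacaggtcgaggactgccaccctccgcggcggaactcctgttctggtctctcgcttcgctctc
Krt7: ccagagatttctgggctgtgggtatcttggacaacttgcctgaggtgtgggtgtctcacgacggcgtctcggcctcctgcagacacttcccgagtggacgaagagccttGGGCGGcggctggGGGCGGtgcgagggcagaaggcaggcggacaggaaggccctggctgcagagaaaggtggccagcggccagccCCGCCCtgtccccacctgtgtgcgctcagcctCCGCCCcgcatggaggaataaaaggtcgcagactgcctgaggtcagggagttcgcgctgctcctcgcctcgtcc
Muc1: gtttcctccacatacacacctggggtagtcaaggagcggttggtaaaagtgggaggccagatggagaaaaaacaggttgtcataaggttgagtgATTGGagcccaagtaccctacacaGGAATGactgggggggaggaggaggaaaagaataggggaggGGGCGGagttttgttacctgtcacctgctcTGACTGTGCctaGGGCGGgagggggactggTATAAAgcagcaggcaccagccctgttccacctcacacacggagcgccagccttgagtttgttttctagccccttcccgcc

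The 2 keratins that rose together shared none of these motifs in their windows. Krt8 held a TATA box match between bases -3 and 5 from the start, read on both strands where the matches overlap. It also held an RBPJ match, and Krt18 held 0 matches. Krt7 held 4 GC boxes. Muc1 held a TATA box match at bases -31 to -26, 2 GC boxes, a CCAAT box, an antioxidant element core and a TEAD match. In all 32851 start windows of the table, 13.6% held the TATA box, 35.7% the GC box, 37.4% the CCAAT box, 7.81% the AP-1 motif, 3.97% the C/EBP-ATF motif, 12.4% the antioxidant core, 0.119% the ER stress element, 25.6% the RBPJ motif and 14.7% the TEAD motif. A match is a description of letters and not a binding site.

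Krt8, the type II keratin of simple epithelia, was read by 3 probe sets, and all rose. Probe set 1420647_a_at read 11.07, 11.23 and 11.21 in wild-type replicates 1, 2 and 3 and 12.88, 13.50 and 13.29 in PiZ replicates 1, 2 and 3. Probe set 1423691_x_at read 11.06, 11.19 and 11.24 in wild-type and 12.90, 13.19 and 12.99 in PiZ. Probe set 1435989_x_at read 11.31, 11.32 and 11.37 in wild-type and 12.89, 13.28 and 13.10 in PiZ. Every PiZ array lay above every wild-type array on each of them, and PiZ replicate 1, whose RNA quality was close to wild-type, was the lowest of the PiZ arrays on each. The differences were 2.05 (SE 0.17, adjusted p = 0.000906), 1.86 (SE 0.12, adjusted p = 0.000321) and 1.76 (SE 0.13, adjusted p = 0.000504) by limma. By the array maker's naming, probes of sets ending in _x_at can also match other transcripts, but the set without that ending gave a difference as large. Among all 22626 probe sets, ordered from the largest rise, the 3 stood at places 84, 104 and 120.

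Krt18, the type I partner of Krt8, rose by nearly the same amount. Its probe set 1448169_at read 10.97, 10.93 and 10.81 in wild-type and 12.60, 12.62 and 12.87 in PiZ. The groups did not overlap, and the 3 PiZ arrays stood 1.69, 1.71 and 1.96 above the wild-type mean. The difference was 1.79 (SE 0.12, limma adjusted p = 0.000359), a 3.46-fold rise at place 117 of all probe sets. The balance of the pair within an array, Krt8 (mean of its probe sets) minus Krt18, was 0.18, 0.31 and 0.46 in wild-type and 0.29, 0.71 and 0.26 in PiZ. It differed by 0.10 between the group means (0.32 ± 0.14 and 0.42 ± 0.25, SD, n = 3; two-sided exact permutation p = 0.7, where 0.1 is the smallest this design allows), and the groups overlapped. With PiZ replicate 1 alone against wild-type the Krt8 probe sets differed by 1.71, 1.73 and 1.56 and Krt18 by 1.69. After adjusting for the 3′ to 5′ measure they differed by 1.68, 1.71, 1.54 and 1.71. All 4 passed under both fits, so the rise was nearly as large in the array with RNA quality close to wild-type.

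**Figure D2:**
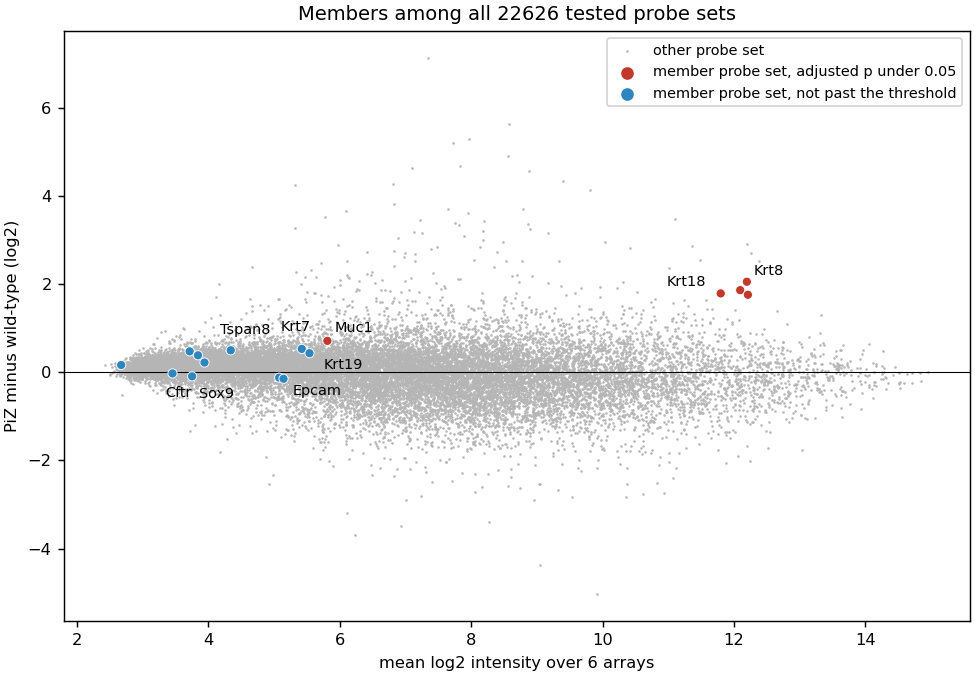
Difference between PiZ and wild-type (vertical axis, log2) against mean log2 intensity over 6 arrays (horizontal axis) for all 22626 tested probe sets, with the 16 member probe sets in colour. The Krt8 and Krt18 probe sets lie between 1.76 and 2.05 at the bright end, and the other members lie between -0.15 and 0.71 at the dim end.

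Krt7, the type II keratin of ducts, read 4.88, 5.40 and 5.19 in wild-type and 5.33, 6.14 and 5.59 in PiZ. The groups overlapped, since PiZ replicate 1 lay below wild-type replicate 2. The difference of 0.53 (SE 0.23) had a limma adjusted p = 0.135. With PiZ replicate 1 as the only PiZ array it was 0.18, and after adjusting for the 3′ to 5′ measure it was 0.07. Without PiZ replicate 1 it was 0.71 and passed (adjusted p = 0.0222), and it passed with the replicate number as a block (adjusted p = 0.0325) and with array weights (adjusted p = 0.0399).

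Krt19, the type I keratin of ducts, read 5.39, 5.25 and 5.33 in wild-type and 5.66, 6.02 and 5.60 in PiZ. All PiZ arrays lay above all wild-type arrays, as they did for 23.4% of all probe sets. The difference was 0.43 (SE 0.14, limma adjusted p = 0.0664), and it passed without PiZ replicate 1 (0.48, adjusted p = 0.024) and with array weights (0.37, adjusted p = 0.0277). The fitted values of Krt7 and Krt19 across alternatives ran from 0.07 to 0.71 and from 0.30 to 0.51.

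The rise of the shared pair was larger than that of the duct pair within each array. The mean of Krt8 and Krt18 minus the mean of Krt7 and Krt19 was 5.92, 5.76 and 5.78 in wild-type and 7.25, 6.89 and 7.40 in PiZ. The groups did not overlap, and this quantity rose by 1.36 (5.82 ± 0.086 to 7.18 ± 0.26, SD, n = 3; two-sided exact permutation p = 0.1, the smallest this design allows). This comparison was set up after the values were seen, and Krt7 and Krt19 lie in the dim range where differences may be compressed.

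Sox9, a transcription factor of ducts and progenitor-like cells, did not pass on either of its probe sets. Probe set 1424950_at read 3.76, 3.88 and 3.76 in wild-type and 3.66, 3.85 and 3.60 in PiZ, and probe set 1451538_at read 5.49, 5.18 and 4.75 in wild-type and 4.73, 5.29 and 5.04 in PiZ. The groups overlapped on both, and the differences were -0.09 (SE 0.11, limma adjusted p = 0.583) and -0.12 (SE 0.22, limma adjusted p = 0.712). The second turned positive without wild-type replicate 1 (0.05) and without PiZ replicate 1 (0.03).

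Epcam, an adhesion molecule of duct epithelium, read 5.30, 4.95 and 5.41 in wild-type and 5.14, 5.23 and 4.85 in PiZ. The groups overlapped. The difference was -0.15 (SE 0.16, limma adjusted p = 0.532), and it stayed between -0.28 and -0.04 over 15 alternatives, with 0 calls.

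Muc1, a membrane mucin of the duct surface, was the only member besides Krt8 and Krt18 that was called higher. It read 5.49, 5.53 and 5.34 in wild-type and 5.85, 6.50 and 6.16 in PiZ, so the groups did not overlap, and only PiZ replicate 2 reached above its array's median. The difference of 0.71 (SE 0.17) had a limma adjusted p = 0.0295, at place 1150 of all probe sets. Without PiZ replicate 1 it was 0.87 and passed (limma adjusted p = 0.00136). The call was lost without any 1 of the other 5 arrays. Adjusted p was then 0.098, 0.0841 and 0.118 without wild-type replicates 1, 2 and 3, and 0.0594 and 0.0907 without PiZ replicates 2 and 3. The differences in those smaller fits were 0.73, 0.75, 0.66, 0.55 and 0.72. In PiZ replicate 1 alone the difference was 0.39 (adjusted p = 0.087), and after adjusting for the 3′ to 5′ measure it was 0.35 (adjusted p = 0.184).

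Tspan8, a tetraspanin of epithelial membranes, had 4 probe sets, all below the array median on all 6 arrays. The highest difference was that of probe set 1420017_at, which read 3.95, 4.22 and 4.11 in wild-type and 4.83, 4.60 and 4.34 in PiZ. The groups did not overlap there, and the difference was 0.50 (SE 0.15, limma adjusted p = 0.0571). It passed with PiZ replicate 1 alone (0.74, adjusted p = 0.0194), without PiZ replicate 1 (0.38, adjusted p = 0.0422) and in 3 further fits: 1 probe set per gene, eBayes with trend, and array weights. After adjusting for the 3′ to 5′ measure it was 0.69 (adjusted p = 0.05, just past the threshold before rounding). The other probe sets, 1420018_s_at, 1420019_at and 1424649_a_at, differed by 0.47, 0.39 and 0.22 and did not pass. Of those, the first kept the groups apart.

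Cftr, the chloride channel of duct secretion, read near the bottom of the array range on both probe sets. Probe set 1420579_s_at read 3.52, 3.52 and 3.36 in wild-type and 3.24, 3.45 and 3.63 in PiZ, and probe set 1427767_a_at read 2.51, 2.65 and 2.61 in wild-type and 2.53, 2.88 and 2.86 in PiZ. The groups overlapped on both, the differences were -0.03 (SE 0.13) and 0.17 (SE 0.13), and the limma adjusted p were 0.901 and 0.379.

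As a set, the 12 member probe sets other than those of Krt8 and Krt18 had a median difference of 0.30, with 8 positive and 4 negative. All 22626 probe sets had a median of 0.08, and the 10161 probe sets below the array median on all arrays had a median of 0.13. Of the 12, 1 was called, that of Muc1. It stood above its array median in PiZ replicate 2, so it lies outside this dim class. Among the dim probe sets 4.48% were called higher, and among all probe sets 8.93%. In 4 of the 12, with Muc1 among them, all PiZ arrays lay above all wild-type arrays. That held for 23.8% of the dim probe sets and 23.4% of all. Cyclic loess brought the median of all probe sets to 0.005, and there Krt7 differed by 0.41, Krt19 by 0.32, Muc1 by 0.62 and the first Tspan8 probe set by 0.36, while Krt8 and Krt18 differed by 1.89 to 2.18.

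Other keratins did not share the size of the Krt8 and Krt18 rise. The keratin family and the chromosomal neighbours were added after values had been seen. Of 40 measured keratin genes, each by its brightest probe set, 7 were called higher and 1 lower, where 9.99% of all genes were called higher and 11.2% lower. Leaving out Krt8 and Krt18, 34 of 38 stood below the array median on all arrays. Of the 38, 5 (13.2%) were called higher, against 9.99% of all genes and 4.48% of probe sets below the array median on all arrays. The differences of the 38 ran from -0.89 to 0.84 with a median of 0.26. Krt25, a hair follicle keratin, rose by 0.84 (SE 0.12, limma adjusted p = 0.00521), Krt6a by 0.60, Krt81 by 0.54, Krt16 by 0.43 and Krt80 by 0.42, and Krt10, the type I keratin of skin, fell by 0.89 (SE 0.19, limma adjusted p = 0.021). Krt8 and Krt18 are neighbours, with 0 protein-coding genes between them in GRCm38.p6. Of the 5 protein-coding genes on either side of the pair, 7 of 10 were measured, of which Spryd3 rose by 0.64 (SE 0.18) and Eif4b, a translation initiation factor, fell by 0.41 (SE 0.10). The nearest measured gene on the Krt8 side, Krt79, read 4.31, 4.68 and 4.50 in wild-type and 4.72, 5.28 and 5.45 in PiZ and did not pass (0.65, SE 0.20, limma adjusted p = 0.062).

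**Figure D3:**
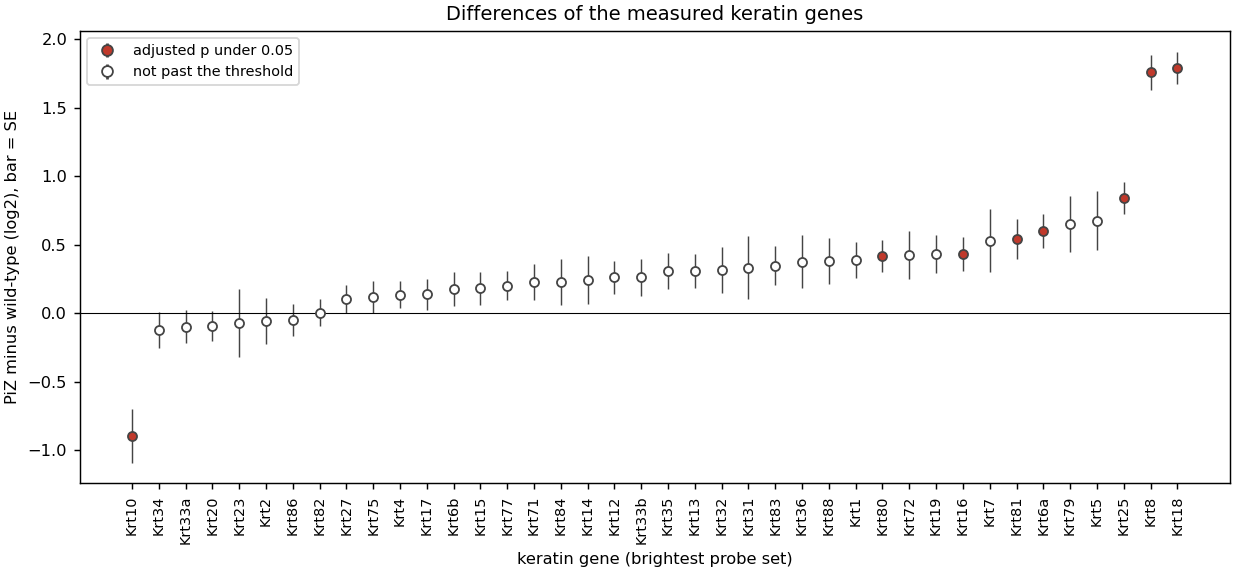
Difference between PiZ and wild-type (vertical axis, log2, bars are SE) of 40 keratin genes (horizontal axis, ordered by difference), each by its brightest probe set, filled where called. Krt8 and Krt18 stand at 1.76 and 1.79, and the next keratin, Krt25, at 0.84.

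A list of keratin partners, with proteins that anchor or crosslink keratin filaments and some further keratins, included 4 genes that rose. Of 15 measured partners, 4 were called higher and 1 lower (median 0.35), against the same shares of all genes. The desmosome-linked plakin Ppl (periplakin) rose by 1.17 (SE 0.29), the transglutaminase Tgm2, which crosslinks keratin aggregates, by 0.99 (SE 0.15), and the desmosome protein Pkp2 by 0.62 (SE 0.15). Tgm2 read 11.36, 11.44 and 11.06 in wild-type and 12.06, 12.37 and 12.40 in PiZ, without overlap, and 4 of its 6 probe sets were called higher. The remaining called genes, Krt80 and Krt10, are among the keratins above, and probe sets of Pkp2 ran from -0.11 to 1.43. Of the partners not called, Dsp and Hspa8 each had 1 dimmer probe set called lower, and Dst had 1 called higher. They are named beyond the rule for lists. Ppl read 5.34, 5.80 and 5.89 in wild-type and 6.73, 7.48 and 6.33 in PiZ, also without overlap. The count of partners called higher was 2 with PiZ replicate 1 alone and 10 without it. It was 1 after adjusting for the 3′ to 5′ measure, 1 without any single wild-type array, 1 without PiZ replicate 2 and 2 without PiZ replicate 3.

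Further markers of cholangiocytes were mostly not called, as were most genes. Of 21 measured, 1 was called higher and 0 lower by limma, where 9.99% of all genes were called higher and 11.2% lower. At an unadjusted p under 0.05 the counts were 5 and 1, and the median difference was 0.21. Elf3, an epithelial transcription factor, rose by 0.55 (SE 0.12, limma adjusted p = 0.0217), from 5.56, 5.73 and 5.73 in wild-type to 6.11, 6.17 and 6.38 in PiZ. Prom1, a membrane glycoprotein of progenitor-like cells, differed by 1.06 (SE 0.33, limma adjusted p = 0.0644), with 7.32, 7.71 and 6.38 in PiZ against 5.78, 6.04 and 6.43 in wild-type, and the groups overlapped. Bicc1, an RNA-binding protein of ducts, differed by 0.86 (SE 0.27, limma adjusted p = 0.0608). Both were named after their values were seen. Without PiZ replicate 1, 6 of the 21 were called higher, and with PiZ replicate 1 alone 1 was. None (0) were called higher without any single wild-type array or after adjusting for the 3′ to 5′ measure. Among 11 measured genes of duct secretion, 1 was called higher and 1 lower, against the same shares of all genes. The anion exchanger Slc26a6 rose by 1.04 (SE 0.13, limma adjusted p = 0.00343). The adenylyl cyclase Adcy6 fell by 0.72 (SE 0.17, limma adjusted p = 0.03), a call lost without any single wild-type array and without PiZ replicate 2, where 0 were called lower.

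**Figure D4:**
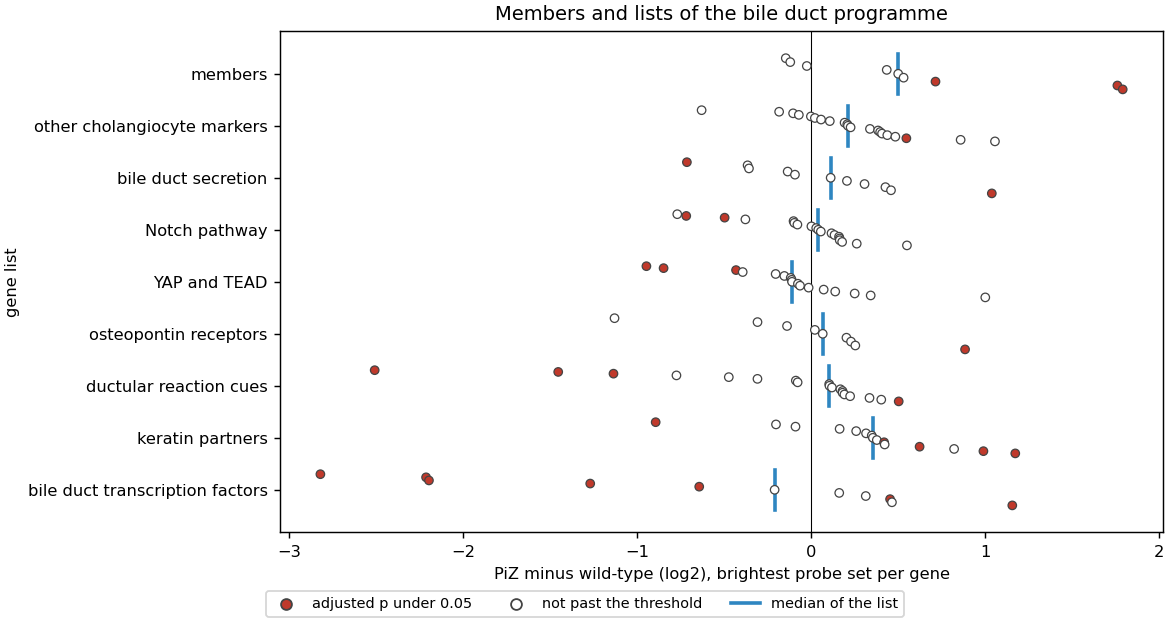
Difference between PiZ and wild-type (horizontal axis, log2) of each measured gene in the members and in 8 related gene lists (vertical axis), by the brightest probe set, filled where called, with a bar at each list's median. Krt8 and Krt18 are the highest points of all lists, and the lists of cues and of transcription factors hold the lowest.

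Genes of pathways known to drive duct formation were read by their brightest probe set. Of all genes, 9.99% were called higher and 11.2% lower in this way. In the Notch pathway, which directs cells to a biliary fate, 0 of 19 measured genes were called higher by limma (2 at an unadjusted p under 0.05, 0 also with PiZ replicate 1 alone and 3 without it) and 2 lower. The receptor Notch2 fell by 0.72 (SE 0.16), from 8.65, 8.38 and 8.46 to 8.07, 7.65 and 7.61, and the protease Adam10, which cleaves Notch receptors, fell by 0.50 (SE 0.11). Their other probe sets differed, reaching 0.36 for Notch2 and 0.14 for Adam10, and 0 Notch genes were called lower with PiZ replicate 1 alone, after adjusting for the 3′ to 5′ measure, or without any 1 array other than PiZ replicate 1. A further Adam10 probe set was called lower at -1.04. A pair of genes named after their values were seen had a dimmer probe set that was called. The ligand Jag1 differed by 0.03 (SE 0.12) on its brightest probe set and was called lower at -0.80 on the other. The Notch target Nrarp differed by 0.05 (SE 0.14) on its brightest probe set and was called higher at 0.42 on the other. Among 17 measured genes of YAP and TEAD signalling, 0 were called higher by limma (1 at an unadjusted p under 0.05) and 3 lower. The kinase Lats2 fell by 0.95 (SE 0.12), Amotl2 by 0.85 (SE 0.20) and the coactivator Wwtr1 (TAZ) by 0.43 (SE 0.12). Of the 6 Lats2 probe sets 2 were called lower, and the highest differed by 0.20. Of the 3 Wwtr1 probe sets 1 was called lower, and the highest differed by 0.06. The count called lower was 1 without any single wild-type array and 1 after adjusting for the 3′ to 5′ measure, and the count called higher was 1 with that adjustment and 1 with PiZ replicate 1 alone. Ccn1, a target of YAP named after its values were seen, read 7.41, 6.32 and 6.46 in wild-type and 8.80, 7.81 and 6.57 in PiZ, with overlap, and did not pass (1.00, SE 0.54, limma adjusted p = 0.219). The count of Notch genes called higher was 1 with cyclic loess and 1 with the replicate number as a block. The median was 0.04 for Notch genes and -0.11 for YAP and TEAD genes. Each list pools genes of different roles, such as a kinase, a coactivator and a target. Counts and medians therefore give no direction of signalling, and pathway activity was not tested.

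The next 3 lists are likewise read against the 9.99% of all genes called higher and the 11.2% called lower. Among 19 measured secreted cues and receptors of the ductular reaction, 1 was called higher and 3 lower by their brightest probe set. Egfr and Hbegf, named beyond the rule for lists, were not called there but had dimmer probe sets that were. Of the 5 Egfr probe sets, which ran from -1.27 to 0.44, 3 were called lower. Of the 2 Hbegf probe sets, 1 was called higher at 0.54. The cytokine receptor Lifr fell by 2.51 (SE 0.38), from 12.39, 11.85 and 11.99 in wild-type to 10.51, 9.10 and 9.10 in PiZ. The chemokine Cxcl12 fell by 1.45 (SE 0.22) and the receptor Tgfbr1 fell by 1.14 (SE 0.13), although only 1 of the 3 Tgfbr1 probe sets was called and another differed by 0.002. Cxcr4, the receptor of Cxcl12, rose by 0.50 (SE 0.13, limma adjusted p = 0.0328) below the array median. That call was lost without wild-type replicate 1 or 3, without PiZ replicate 2 or 3, with PiZ replicate 1 alone and after adjusting for the 3′ to 5′ measure, where 0 cues were called higher. Of 9 measured osteopontin receptors, 1 was called, the integrin subunit Itgb5, which rose by 0.88 (SE 0.22), and 0 were called higher without any 1 array other than PiZ replicate 1. With PiZ replicate 1 alone, and after adjusting for the 3′ to 5′ measure, 0 were called higher and 1 lower. Of 11 measured transcription factors of duct development, 2 were called higher and 5 lower (median -0.21), and Hhex, Onecut1, Foxa1 and Foxa2 fell, factors that hepatocytes also use. The other 3 called factors, named beyond the rule for lists, were Sox4, which fell by 0.64 (SE 0.16) and whose 6 probe sets reached 0.54, Klf6, which rose by 1.15 (SE 0.27), and Grhl2, an epithelial factor, which rose by 0.45 (SE 0.11). Both rises were lost without any single wild-type array and without PiZ replicate 2, where 0 factors were called higher, and the count was 1 with PiZ replicate 1 alone and 1 after adjusting for the 3′ to 5′ measure. The count called lower was 3 without any single wild-type array or PiZ replicate 3.

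Markers of other cells that carry some of these genes moved in part. Of all genes, 9.99% were called higher and 11.2% lower by their brightest probe set. Counts of 0 here are limma's, with the count at an unadjusted p under 0.05 in brackets. Of 11 macrophage markers 3 were called higher (Marco by 0.97, Cd5l by 0.67 and Clec4f by 0.64) and 0 (0) lower. Of the 11 differences 8 were positive (median 0.29), while Vsig4 differed by -0.23, Lyz2 by -0.23 and Adgre1 by -0.10. Their summed linear intensity, which holds the bright Csf1r and Cd5l, was 8035 to 8339 in wild-type and 9379 to 11210 in PiZ. Of 5 measured mesothelial markers, cells that also carry Krt8, Krt18 and Krt19, 0 (0) were called higher and 1 lower (Gpm6a, -1.57), 3 stood below the median on all arrays, the median was -0.43, and their sum was 183.1 to 239.1 in wild-type and 106.7 to 153.0 in PiZ. Of 12 gallbladder and gut markers 2 were called higher (Gpx2 by 2.80, a glutathione peroxidase, and Guca2a by 0.50) and 2 lower (Fabp2 and Tff3), and 10 of the 12 differences were positive (median 0.24), while their sum, which holds the bright Fabp2 (-1.72), was 3349 to 3744 in wild-type and 1723 to 2341 in PiZ. Of 11 pancreatic acinar markers 1 was called higher and 1 lower, 8 stood below the median on all arrays, and 10 of the 11 differences were positive (median 0.16). The acinar sum, which holds the bright Cela1 (-1.07, called lower), was 993.6 to 1085 in wild-type and 723.6 to 850.7 in PiZ. Of 12 stellate and fibroblast markers 0 (1) were called higher and 1 lower (sum 8725 to 9664 in wild-type and 7707 to 11570 in PiZ). Of 9 endothelial markers 1 was called higher and 0 (0) lower (2832 to 2929 and 2728 to 2892). Of 10 hepatocyte markers 1 was called higher and 2 lower, with sums of 193100 to 196100 and 155800 to 180600. The part of these cell types in the member values was not tested.

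**Figure D5:**
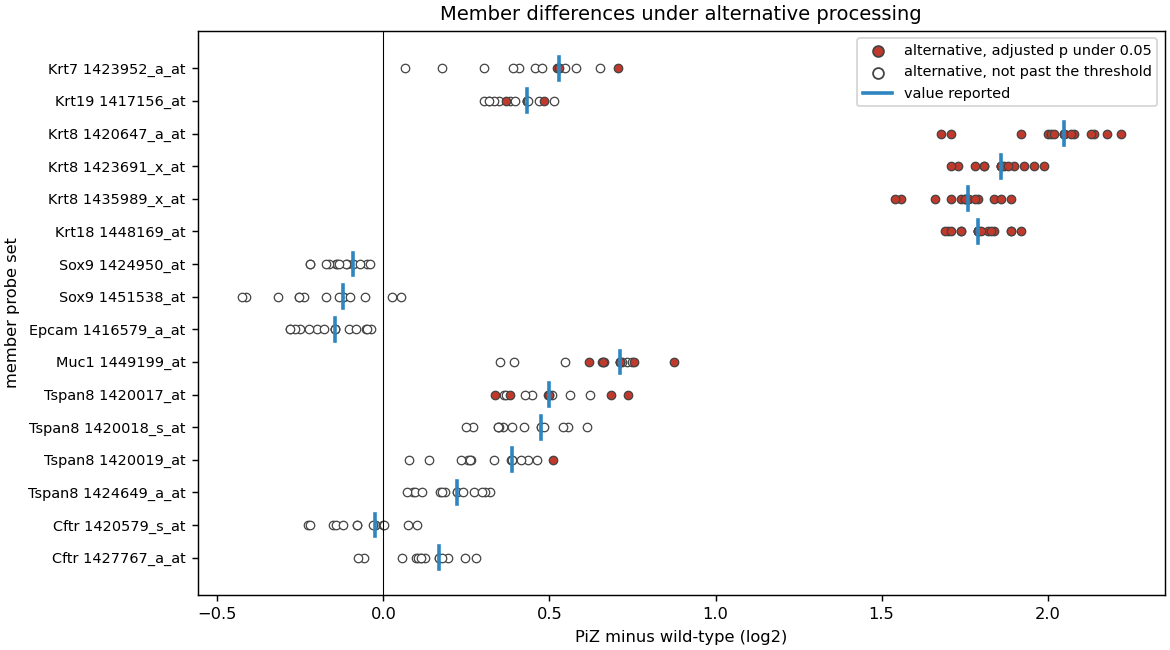
Difference between PiZ and wild-type (horizontal axis, log2) of each member probe set (vertical axis) under the alternative fits, filled where called, with a bar at the reported value. The 4 probe sets of Krt8 and Krt18 were called in every fit that held them and stayed between 1.54 and 2.22.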

How the data were processed

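Log2 intensities per probe set were deposited by the authors. The submitters' processing notes name affy and RMA, and the sources used here give no version or filter. RMA makes the distributions of all arrays alike, so a shift shared by most genes would be removed. That the values are log2 was read from their range. Of 22690 probe sets, 64 controls were left out and 22626 were tested. The platform annotation named exactly 1 gene for 20380 of these, several for 691 and none for 1555, and probe sets of the last 2 kinds were not named. All 6 value columns were matched to samples (3 wild-type, 3 PiZ), with 0 left over.

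The comparison was fitted in R 4.3.3 by limma 3.58.1 (lmFit, then eBayes, two-sided and without covariates), adjusted over all probe sets at a threshold of 0.05. Gene lists used the brightest probe set of each gene, and all members and markers could be named, with at most 4 called genes from a list, taken by size (where a list had no call, the 2 lowest p). Genes named beyond this are said to be, apart from Krt80, which was named as a keratin. Alternatives changed the probe set choice, the dim filter, the scaling, the variance model, array weights, the threshold, the replicate block and the arrays used, and adjusted for the 3′ to 5′ measure. Exact permutation tests used scipy 1.17.1, with tables in pandas 2.3.3 and figures in matplotlib 3.10.9 under Python 3.11.15. Start windows came from RefSeq (GRCm38.p6), where 8 of 10 members had one. The members and lists were chosen with earlier results of these data known. The fit was tested on simulated data before use. The number of arrays limits the precision. Replicate numbers were not treated as pairs in the reported fit. Deviations from the group means correlated at 0.3, 0.304 and -0.041 between same-numbered arrays and from -0.396 to 0.286 between the others. With n = 3 per group these values cannot settle whether the numbers pair the arrays.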

Additional observations from a re-analysis of the deposited data

How the results depend on the processing

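The calls of Krt8 and Krt18 kept their direction and stayed past 0.05 in 15 or 16 alternative fits each, with adjusted p up to 0.00908, and they also passed at a threshold of 0.01. The 4331 probe sets called overall became 10986 with array weights, 2812 after adjusting for the 3′ to 5′ measure and 1133 at a threshold of 0.01, and ran from 1239 to 10547 when 1 array was left out, the highest without PiZ replicate 1. Of the calls, 46.6% were higher, against 33.5% after centring on 8 reference genes. Member probe sets called higher, 5 in the reported fit, were 8 with array weights, and ran from 4 to 9 when 1 array was left out. With the replicate number as a block, 5189 probe sets and 6 member probe sets were called, Krt7 being the addition. Whether the replicate number pairs the arrays is not known here. Members called lower were 0 in every limma fit, and 0 had an unadjusted p under 0.05 in the reported one. Signs changed only in uncalled probe sets. Without 1 array, Sox9 1451538_at ran from -0.317 to 0.0533 and Cftr 1420579_s_at from -0.122 to 0.0739. The latter was 0.102 with array weights, and Cftr 1427767_a_at was -0.0591 with PiZ replicate 1 alone and -0.078 with the adjustment. Members other than Krt8 and Krt18 have no value without dim probe sets. The cause of these shifts was not tested. Fits with 1 PiZ array assume that it varies like wild-type.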
